A study of Mus musculus with 9 samples.

Results

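Sarcomere genes of striated muscle were followed in cultured mouse embryo fibroblasts (MEFs) that lacked Tgif1 or were wild type. The set was a list of 50 genes for the parts of the sarcomere, and a probe-set belonged to it when its gene symbol was on the list. All 50 genes were on the array, by 88 of its 45101 probe-sets, among 18194 genes with a symbol. The genes fell into 3 embryonic or perinatal isoforms, 17 cardiac or slow isoforms, 13 fast isoforms and 17 genes shared by striated muscles.

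The sarcomere is the contractile unit of skeletal and heart muscle. Thick filaments of myosin slide past thin filaments of actin, the troponin complex on the thin filament makes this depend on calcium, and Z-discs, M-bands and titin hold the filaments in register. Muscle changes its isoforms as it develops: embryonic skeletal muscle makes embryonic myosin together with isoforms that in the adult are typical of the heart or of slow fibres, and adult fast fibres use a set of their own. Fibroblasts have a contractile apparatus of smooth muscle and non-muscle type and do not build sarcomeres, but primary MEF cultures are made from whole embryo tissue and can hold cells of other types.

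The study asked how loss of Tgif1, a transcriptional corepressor that limits TGFβ responses, changes MEFs as they are passaged. The 3 groups compared had 3 arrays each: Tgif1 -/- MEFs at passage 3 (null P3), wild type MEFs at passage 5 (P5) and wild type MEFs at passage 3 (P3). All were untreated primary cells from 13.5 day embryos of the C57BL/6J x 129Sv/J strain, grown with 10% serum on a 3T3 schedule, in which cells are replated at a fixed density. The null lacked Tgif1 in every cell of the embryo, and a null at passage 5 was not among the arrays, so genotype was compared at passage 3 alone.

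Levels are given as log2 signal, on which a difference of 1 is a doubling. The lowest value on every array was 2.23, values at this floor have no order and cannot show a decrease, and a signal under 4 is called dim here. Against a group whose mean is dim, a fold is given as a lower bound, with the dim arrays of that group set to 4. Replicate arrays correlated at 0.996 to 0.999 over all probe-sets. Tgif1 had signals of 2.48, 3.21 and 2.50 in the null, 10.06, 10.07 and 10.18 in P5 and 9.82, 9.95 and 9.72 in P3, as the labels require. Of 15 fibroblast genes, 14 averaged above 4 in the null, 15 in P5 and 14 in P3. In such bulk RNA, fewer cells of a type and less RNA per cell cannot be told apart.

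Part of the sarcomere genes were higher in the null than in wild type cells of the same passage. The paper had already reported from these arrays that troponin and myosin genes were raised in the null. The list of 50 was chosen with earlier results of these data known, so the shares below describe it and do not test it. For 13 of the 50 genes the null was higher, for 0 it was lower, and 37 missed the threshold (moderated test of limma across all probe-sets, Benjamini-Hochberg adjusted p under 0.05), where 1.51% of all 18194 genes rose and 1.07% fell. The 13 were Synpo2l, Tnnc2, Tnni1, Myl1, Myh3, Actc1, Tnnt1, Myl4, Mylpf, Tnnc1, Myom1, Casq2 and Cryab. Their differences ran from 0.68 to 3.52, with a median of 2.11, and the median over all 50 genes was 0.23 against 0 over all genes. Groups did not overlap for 20 members, all higher in the null, against 8.24% of all genes higher and 7.73% lower. With passage, in wild type cells, 6 members rose and 8 fell, where 6.13% of all genes rose and 7.11% fell. By the selection that the methods describe, a p under 1e-04 in the comparison itself, not adjusted here, with a difference of at least 0.5, 8 members were higher in the null than in P3 and 0 lower (0.39% and 0.236% of all genes). By that selection, 3 were higher and 4 lower in P5 than in P3 (1.41% of all genes in each direction). Over all genes it gave 71 higher and 43 lower in the null than in P3. The paper reports a far larger number for that comparison at the same stated limits, counted in probe-sets, so its lists were not reproduced here. The cause of the gap was not tested.

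The comparison of the null with P3 was the least firm of the 3. When only its 6 arrays were fitted, 0 members passed in limma, with a smallest adjusted p of 0.0536, and 18 had an unadjusted p under 0.05. Without P3 replicate 1, 3 members passed, and without P3 replicate 2 or P5 replicate 1, 8 did. Synpo2l and Tnnc2 passed in 18 of 19 other settings, Myh3 in 17, and Casq2 in 6.

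**Figure D1:**
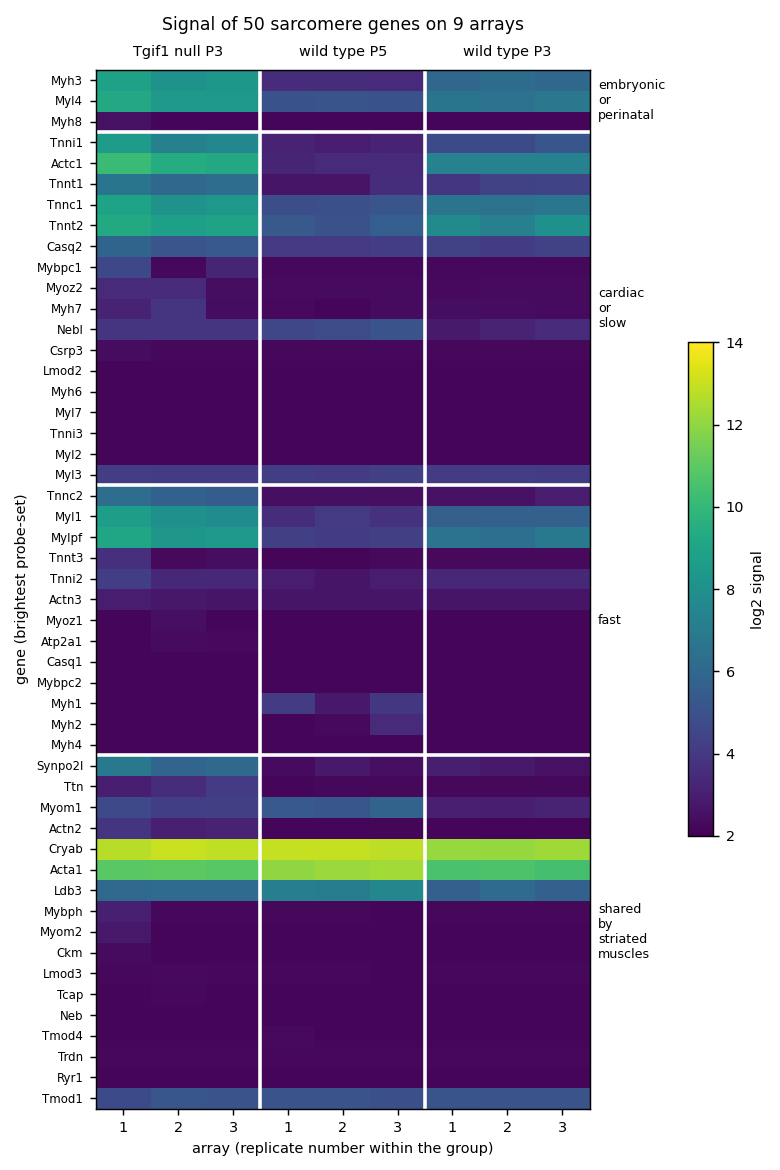
Log2 signal (colour) of the 50 sarcomere genes (rows, 1 probe-set each, by isoform class and, within a class, by the difference between null P3 and wild type P3) on the 9 arrays (columns, 3 per group). In each class some rows are highest in the null, while others, such as Acta1, Ldb3 and Myom1 of the shared class, are highest in P5. Of the 50 rows, 27 stay under 4 on all 9 arrays.

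Myh3, the heavy chain of embryonic myosin, had signals of 8.87, 8.15 and 8.34 in the null, 3.50, 3.58 and 3.48 in P5 and 5.98, 6.27 and 6.07 in P3. The 3 groups did not overlap. It was 5.10-fold higher in the null than in P3 (difference 2.35, SE 0.19, adjusted p = 0.00575) and at P5, where it was dim, lay at least 4.30-fold below P3 (difference -2.58, SE 0.19, adjusted p = 0.000976).

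Actc1, the alpha-actin of the heart and of embryonic skeletal muscle, had signals of 10.19, 9.41 and 9.26 in the null, 3.26, 3.48 and 3.44 in P5 and 7.33, 7.33 and 7.31 in P3. It was highest on every null array and lowest on every P5 array. The null exceeded P3 4.91-fold (difference 2.30, SE 0.23, adjusted p = 0.0123). At P5 it was dim and at least 10.0-fold below P3 (difference -3.93, SE 0.23, adjusted p = 0.000569).

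Tnnc2, the calcium-binding troponin of fast fibres, had signals of 6.30, 5.71 and 5.51 in the null, 2.48 on all P5 arrays and 2.57, 2.57 and 2.96 in P3. It was dim on all 6 wild type arrays. The null exceeded P3 at least 3.58-fold (difference 3.14, SE 0.21, adjusted p = 0.00424), and P5 did not pass the test against P3 (difference -0.22, SE 0.21, adjusted p = 0.725).

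Acta1, the alpha-actin of adult skeletal muscle, went another way than Actc1. Its signals were 10.95, 10.96 and 10.86 in the null, 12.03, 12.18 and 12.32 in P5 and 10.56, 10.67 and 10.48 in P3. Acta1 was 3.04-fold higher in P5 than in P3 (difference 1.60, SE 0.08, adjusted p = 0.000389), and the null did not pass against P3 (difference 0.35, SE 0.08, adjusted p = 0.128) although the arrays did not overlap.

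The promoters of these 4 genes are shown because the genes represent the different patterns: Myh3 and Actc1 high in the null and low at P5, Tnnc2 high in the null alone, and Acta1 high at P5. Each window runs from 250 bases before to 50 after the RefSeq start, in assembly GRCm38.p6. Capitals mark matches to the E-box CANNTG, which basic helix-loop-helix factors such as myogenin bind, to the TATA box TATAAA and to the CArG box, which serum response factor binds. Positions below are those of the first base relative to the start. The window of Myh3 (chr11:67078050-67078349, plus strand) had 1 E-box and a TATAAA at -29. That of Actc1 (chr2:114052826-114053125, minus strand) had 1 E-box, a TATAAA and a CArG box. The E-box of Actc1, at 9, and its TATAAA, at 34, lay after the RefSeq start. The window of Acta1 (chr8:123894726-123895025, minus strand) had 2 E-boxes, a TATAAA at -7 and a CArG box, and that of Tnnc2 (chr2:164779685-164779984, minus strand) 2 E-boxes.
Myh3: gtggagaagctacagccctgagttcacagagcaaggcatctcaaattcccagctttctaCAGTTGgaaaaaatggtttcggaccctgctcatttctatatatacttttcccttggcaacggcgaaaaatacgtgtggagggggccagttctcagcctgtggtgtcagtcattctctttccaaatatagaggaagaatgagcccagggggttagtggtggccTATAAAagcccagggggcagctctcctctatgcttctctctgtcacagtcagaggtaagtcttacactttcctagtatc
Actc1: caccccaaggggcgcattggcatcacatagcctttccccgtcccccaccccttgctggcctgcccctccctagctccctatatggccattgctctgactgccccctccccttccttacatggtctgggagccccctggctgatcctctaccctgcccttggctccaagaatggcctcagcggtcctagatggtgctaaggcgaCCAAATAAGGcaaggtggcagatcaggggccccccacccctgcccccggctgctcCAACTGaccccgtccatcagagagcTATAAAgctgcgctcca
Acta1: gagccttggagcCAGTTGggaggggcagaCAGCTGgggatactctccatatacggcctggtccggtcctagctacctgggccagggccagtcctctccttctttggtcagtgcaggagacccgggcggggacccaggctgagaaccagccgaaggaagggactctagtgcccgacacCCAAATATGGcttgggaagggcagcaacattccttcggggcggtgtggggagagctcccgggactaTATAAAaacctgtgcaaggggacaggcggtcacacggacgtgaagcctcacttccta
Tnnc2: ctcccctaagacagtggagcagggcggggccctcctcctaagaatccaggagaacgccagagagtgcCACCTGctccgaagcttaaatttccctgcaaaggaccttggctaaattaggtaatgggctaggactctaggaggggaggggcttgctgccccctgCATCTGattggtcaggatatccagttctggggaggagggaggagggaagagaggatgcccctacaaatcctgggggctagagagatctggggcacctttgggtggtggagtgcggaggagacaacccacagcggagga

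The same motifs were counted on both strands in the 40 members with a promoter in the RefSeq table, of which 12 were among the genes that rose in the null, and in all 27025 genes of the table. An E-box was found for 34 of the 40 members (85.0%) and for 75.0% of all genes, its form CAGCTG for 37.5% and 18.3%, and TATAAA for 30.0% and 15.7%. A CArG box was found for 20.0% of members and 1.81% of all genes, and the site of MEF2 factors, which act beside myogenin, for 17.5% and 3.7%; a CAGCTG is also counted as an E-box. TGTCA, a sequence that Tgif1 is known to bind, was found for 55.0% of members and 49.3% of all genes. Among the 12 genes that rose in the null, 2 had a CArG box and 2 a MEF2 site, against 6 and 5 of the other 28 members. These are counts of letters in short windows, and whether any is a site in use was not tested.

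In the thick filament, 4 of 16 members rose in the null and 0 fell, where 1.51% of all genes rose and 1.07% fell. Besides Myh3 these were 3 light chains, Myl4, Myl1 and Mylpf. Myl4, the essential light chain of embryonic muscle and of the atrium, had signals of 9.25, 8.51 and 8.40 in the null, 5.02, 5.11 and 5.02 in P5 and 6.66, 6.52 and 6.74 in P3. It was 4.23-fold higher in the null than in P3 (adjusted p = 0.0133).

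Myl1, the essential light chain of fast muscle, had signals of 8.74, 8.01 and 7.82 in the null, 3.56, 4.04 and 3.72 in P5 and 5.62, 5.69 and 5.69 in P3. Mylpf, the regulatory light chain of fast muscle, had 9.05, 8.36 and 8.47 in the null, 4.25, 4.09 and 4.25 in P5 and 6.55, 6.39 and 6.83 in P3. For both genes every null array lay above every P3 array and every P5 array below. The null exceeded P3 by 2.52 for Myl1 (SE 0.25, adjusted p = 0.0113) and by 2.04 for Mylpf (SE 0.20, adjusted p = 0.0117).

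Of the 7 heavy chains, 1 rose in the null, Myh3, and the other 6 did not pass. Myh2 and Myh4 of adult fast fibres and Myh6 of the heart stayed within 0.01 of the floor on every null and P3 array, and Myh8, the perinatal heavy chain, reached 2.53 on null replicate 1. Myh7, the slow and cardiac heavy chain, had signals of 3.21, 3.79 and 2.40 in the null, against 2.47, 2.40 and 2.36 in P3, so that the groups overlapped. The light chains of the heart, Myl2 and Myl7, were at the floor on all 9 arrays, and Myl3, of slow muscle and the ventricle, lay between 4.13 and 4.27 on all 9. Mybpc1, a myosin-binding protein of slow muscle, varied within the null, with signals of 4.58, 2.26 and 3.24, against 2.26 on each P5 and P3 array.

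**Figure D2:**
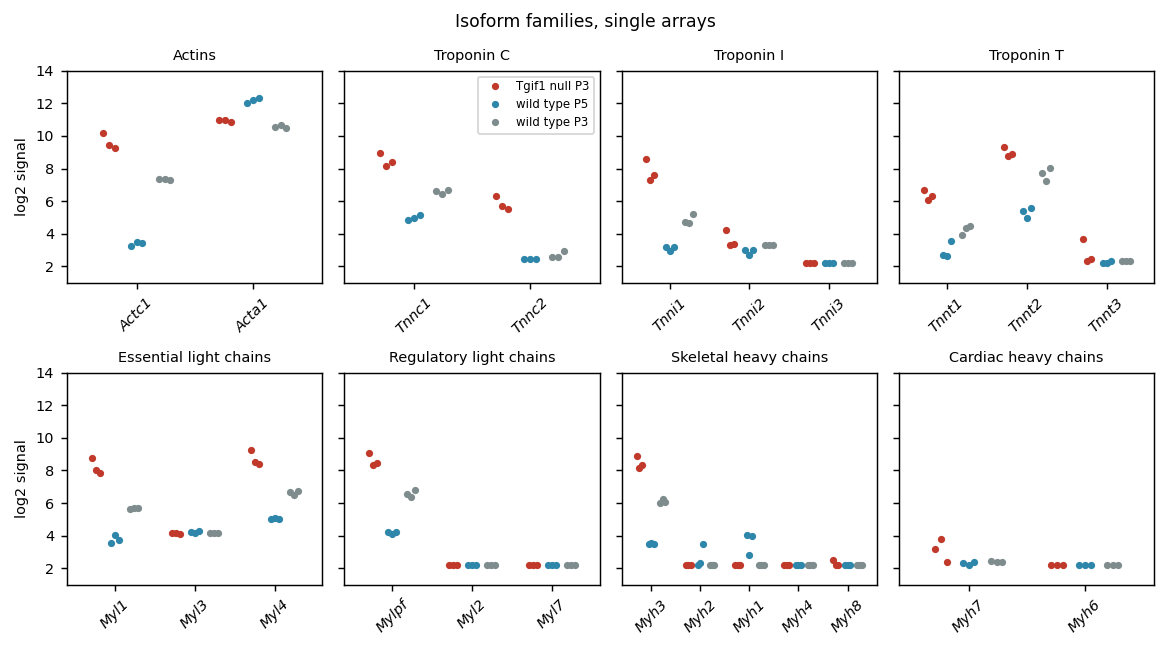
Log2 signal of 8 isoform families on single arrays (dots), with Tgif1 null P3 left, wild type P5 in the middle and wild type P3 right for each gene. In several families some isoforms differed between groups while others, such as Tnni3, Myl2, Myl7 and Myh6, stayed near the floor of 2.23 on all 9 arrays.

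In the thin filament, 5 of 16 members rose in the null and 0 fell, where 1.51% of all genes rose and 1.07% fell. Beside Actc1 they were all troponins, of which 4 of 8 rose. Tnnc1, the troponin C of slow muscle and heart, had signals of 8.95, 8.13 and 8.42 in the null, 4.87, 4.94 and 5.15 in P5 and 6.61, 6.46 and 6.69 in P3. Tnni1, the inhibitory troponin of slow muscle, had 8.59, 7.29 and 7.62 in the null, 3.21, 2.95 and 3.21 in P5 and 4.71, 4.67 and 5.23 in P3. The null was 3.77-fold higher than P3 for Tnnc1 (adjusted p = 0.0148) and 7.79-fold for Tnni1 (adjusted p = 0.0181), with no overlap between groups.

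Tnnt1, the troponin T of slow muscle, had signals of 6.69, 6.04 and 6.31 in the null, 2.68, 2.62 and 3.55 in P5 and 3.91, 4.33 and 4.46 in P3. It was 4.32-fold higher in the null than in P3 (adjusted p = 0.0344). Tnnt2, the troponin T of the heart and of embryonic skeletal muscle, had 9.29, 8.76 and 8.91 in the null, 5.37, 4.99 and 5.59 in P5 and 7.70, 7.24 and 8.01 in P3. The null arrays of Tnnt2 lay above those of P3, but the difference of 1.34 (SE 0.26) did not pass (adjusted p = 0.0734), and P5 was 5.04-fold lower than P3 (adjusted p = 0.00412).

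The other 3 troponins were dim on all wild type arrays and did not pass. Tnni3, the cardiac inhibitory troponin, was at the floor on all 9 arrays. Tnni2 and Tnnt3, of fast muscle, had signals of 4.23 and 3.66 on null replicate 1, while the other null replicates lay at 3.32 to 3.38 for Tnni2 and 2.31 to 2.43 for Tnnt3, against 3.32 and 2.31 on every P3 array. Tmod1, which caps the pointed end of thin filaments in muscle and in other cells, lay between 4.69 and 5.20 with overlapping groups, and nebulin (Neb), Tmod4, Lmod2 and Lmod3 were within 0.1 of the floor.

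**Figure D3:**
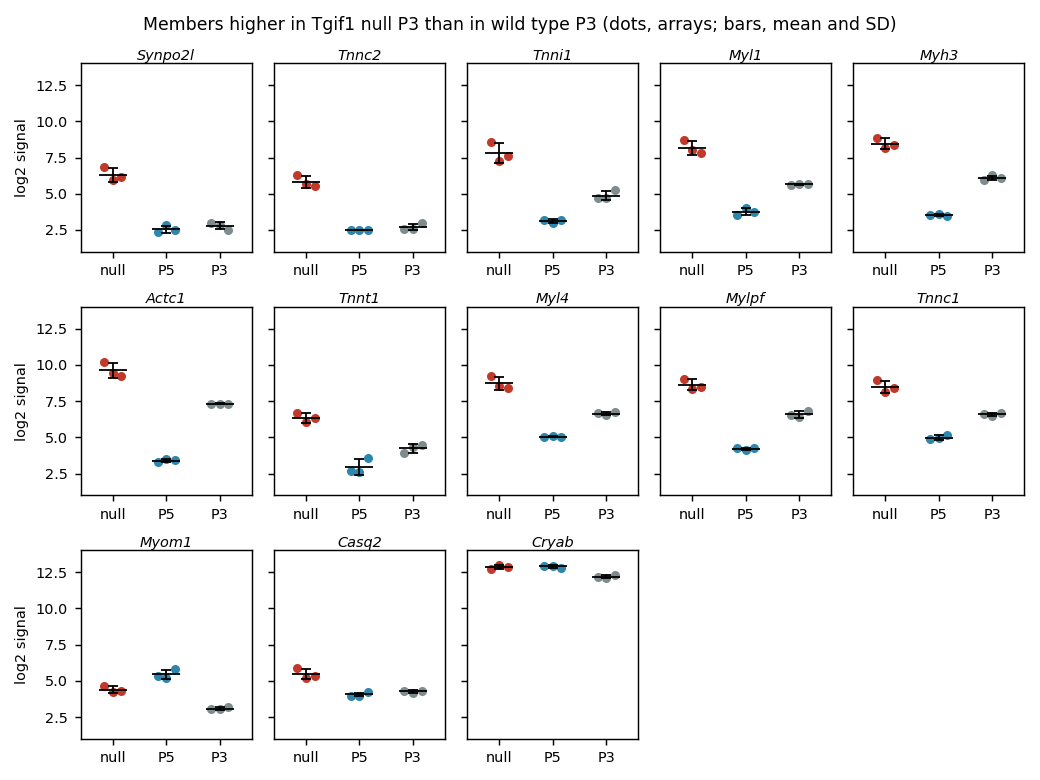
Log2 signal of the 13 members that rose in Tgif1 null P3, on single arrays (dots) with the mean and SD of 3 arrays (bars), for null P3, wild type P5 and wild type P3. The mean of P5 lay below that of P3 for 11 of the 13, of which 7 passed the test, but Myom1 and Cryab were higher in P5 than in P3, by 2.36 and 0.72.

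In the Z-disc, M-band and titin group, 3 of 12 members rose in the null and 0 fell (1.51% and 1.07% of all genes). Synpo2l, an actin-associated protein of the Z-disc, had signals of 6.84, 5.93 and 6.16 in the null, 2.33, 2.81 and 2.49 in P5 and 3.01, 2.83 and 2.52 in P3. The wild type arrays were all dim. The null exceeded P3 at least 4.95-fold (difference 3.52, SE 0.27, adjusted p = 0.00524). This rests on 1 of 4 probe-sets for the gene, since the others stayed under 4 on all arrays and did not pass.

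Myom1, the myomesin that links thick filaments at the M-band, had signals of 4.66, 4.24 and 4.29 in the null, 5.34, 5.19 and 5.80 in P5 and 3.04, 3.02 and 3.19 in P3. P3 was dim, so Myom1 was at least 1.32-fold higher in the null and at least 2.72-fold higher in P5. It rose both in the null (difference 1.31, SE 0.18, adjusted p = 0.0293) and with passage (difference 2.36, SE 0.18, adjusted p = 0.00121). Cryab, a small heat shock protein that protects desmin and the Z-disc and is also made outside muscle, did likewise, with 12.72, 13.00 and 12.85 in the null, 12.95, 12.94 and 12.80 in P5 and 12.14, 12.11 and 12.29 in P3. The differences of Cryab were 0.68 in the null (adjusted p = 0.023) and 0.72 with passage (adjusted p = 0.00532).

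Titin (Ttn), the elastic filament that spans the sarcomere, had signals of 3.00, 3.53 and 4.15 in the null, against 2.23 to 2.24 in P5 and 2.24 on each P3 array. Actn2, the alpha-actinin that crosslinks actin at the Z-disc, had 3.87, 3.05 and 3.14 in the null, against the floor on all 6 wild type arrays. Neither passed against P3 (adjusted p = 0.0808 for Ttn and 0.0649 for Actn2), and both passed against P5 (adjusted p = 0.0343 for Ttn and 0.0263 for Actn2). Actn3, Myoz1, Tcap and Csrp3, further Z-disc proteins, were dim on all arrays.

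Of 6 genes for calcium handling and energy, 1 rose in the null, where 1.51% of all genes did. Casq2, the calsequestrin that stores calcium in the heart and slow muscle, had signals of 5.88, 5.18 and 5.33 in the null, 3.98, 3.98 and 4.20 in P5 and 4.33, 4.14 and 4.33 in P3. Its difference from P3 was 1.20 (SE 0.19, adjusted p = 0.0395). The calcium release channel Ryr1, its partner Trdn, the calcium pump Atp2a1, Casq1 and the muscle creatine kinase Ckm did not exceed 2.36 on any array.

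By isoform class, 2 of 3 embryonic or perinatal, 5 of 17 cardiac or slow, 3 of 13 fast and 3 of 17 shared members rose in the null. Over all genes, 1.51% did. The fast members that rose, Tnnc2, Myl1 and Mylpf, stood beside 10 that did not pass. Of the 50 genes, 27 were dim on all 9 arrays, and 0 of these rose or fell in the null relative to P3. The values of 14 members spanned less than 0.1 over the 9 arrays.

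With passage, members moved in both directions, also within the thin filament (2 of 16 rose and 4 fell) and the thick filament (1 of 16 rose and 4 fell). Those that fell in P5 relative to P3 were Actc1, Myh3, Mylpf, Tnnt2, Myl1, Tnni1, Tnnc1 and Myl4, by 1.59 to 3.93. Those that rose were Myom1, Nebl, Acta1, Ldb3, Myh1 and Cryab, by 0.72 to 2.36. By class, 2 embryonic or perinatal members fell and 0 rose, 4 cardiac or slow fell and 1 rose, 2 fast fell and 1 rose, and among shared members 0 fell and 4 rose. Over all genes, 6.13% rose and 7.11% fell. The single rises in the cardiac or slow class (5.88%) and the fast class (7.69%) were near the share of all genes. Non-overlapping groups were found for 12 members lower and 6 higher in P5, where 16.2% of all genes were lower and 14.6% higher.

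Nebl, the nebulin-like protein of the cardiac Z-disc, had signals of 3.87, 3.83 and 3.87 in the null, 4.57, 4.79 and 5.06 in P5 and 2.89, 3.20 and 3.46 in P3. Ldb3, a Z-disc protein that binds alpha-actinin, had 6.11, 6.20 and 6.20 in the null, 7.14, 7.03 and 7.56 in P5 and 5.68, 6.20 and 5.66 in P3. For both genes P5 was highest, by 1.63 over P3 for Nebl (adjusted p = 0.00365) and by 1.40 for Ldb3 (adjusted p = 0.00842). Nebl was dim in P3, so its P5 level was at least 1.75-fold higher.

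Myh1, a heavy chain of adult fast fibres, had signals of 4.07, 2.84 and 3.96 in P5, against the floor on all null and P3 arrays. Its difference of 1.39 (SE 0.31, adjusted p = 0.0464) passed in the main fit and was lost in 13 of 18 other settings. The probe-set carries the suffix _x_at, which the array's maker gives to probes that can match further sequences, and the Myh genes are close relatives.

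**Figure D4:**
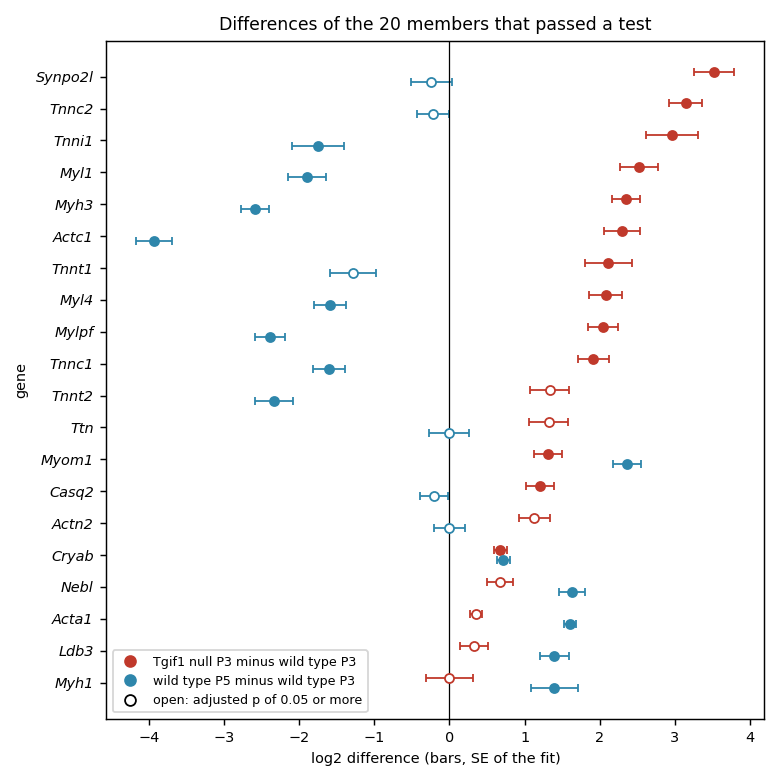
Log2 differences, with the SE of the fit, of the 20 members that passed at least 1 of the 3 comparisons, for Tgif1 null P3 minus wild type P3 and wild type P5 minus wild type P3. Filled points passed the test; Actc1 stood at 2.30 in the null and at -3.93 with passage, and both comparisons share the 3 wild type P3 arrays.

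Against P5, 14 members rose in the null and 4 fell, with 32 short of the threshold, where 6.08% of all genes rose and 5.33% fell. The 11 members that were higher in the null than in both wild type groups were Actc1, Casq2, Myh3, Myl1, Myl4, Mylpf, Synpo2l, Tnnc1, Tnnc2, Tnni1 and Tnnt1, where 0.78% of all genes were. P5 was dim on average for 7 of these. In the null Actc1 was at least 49.2-fold higher than in P5, Myh3 at least 21.9-fold, Myl1 at least 18.1-fold, Tnni1 at least 14.2-fold, Tnnt1 at least 5.08-fold, Synpo2l at least 4.95-fold and Tnnc2 at least 3.58-fold, with adjusted p-values of 0.00243 or less. Mylpf, with a P5 mean of 4.20, was 21.6-fold higher (adjusted p = 0.000297). Tnnt2, Ttn and Actn2 also rose relative to P5. By the selection that the methods describe, 11 were higher and 1 lower in the null than in P5 (1.15% and 1.42% of all genes). Groups did not overlap for 18 members higher and 5 lower in the null, where 16.6% of all genes were higher and 13.3% lower. The 4 that fell were Acta1, Ldb3, Myom1 and Nebl, by 0.95 to 1.25. These comparisons share arrays with the others, so their calls are not separate evidence.

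Of the 20 members that passed any comparison, 13 had means in the order null, P3, P5 from high to low, and 7 of these passed all 3 comparisons (Actc1, Myh3, Myl1, Myl4, Mylpf, Tnnc1 and Tnni1). The step from P3 to P5 did not pass for Casq2, Synpo2l, Tnnc2, Tnnt1 and Ttn. Synpo2l, Tnnc2 and Ttn were dim in both wild type groups, so their order there carries no weight. Another 5 were ordered P5, null, P3, of which Myom1 passed all 3 comparisons. Acta1, Ldb3 and Nebl were higher in P5 than in both the null and P3, and the null missed the threshold against P3 (adjusted p = 0.128 for Acta1, 0.768 for Ldb3 and 0.168 for Nebl). For Cryab the null missed the threshold against P5 (difference -0.04, SE 0.09, adjusted p = 1). Actn2 and Myh1 completed the 20, each at the floor in the remaining groups.

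Several members lie next to each other in the genome. Myh3, Myh2, Myh1, Myh4 and Myh8 follow each other on chromosome 11 with no coding gene between neighbours, and within this row Myh3 rose in the null while the others did not pass, with differences of 0 for Myh2, Myh1 and Myh4 and 0.10 for Myh8. Tnnt1 rose, and Tnni3 beside it on chromosome 7 was at the floor. Synpo2l rose, and its neighbour Myoz1 on chromosome 14 differed by 0.08. Tnni1 and Tnnt2, with 1 coding gene between them on chromosome 1, both fell with passage.

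For 18 members several probe-sets were measured. Of the 38 further probe-sets, 3 exceeded 4 on any array. The second probe-set of Tnnt2 passed the same comparisons as the first, with -2.47 with passage (adjusted p = 0.00868) and 3.60 for the null against P5 (adjusted p = 0.00266). Like that of Myh1, this second probe-set carries the suffix _x_at. The second bright probe-set of Cryab differed by 0.75 in the null and by 0.68 with passage but did not pass (adjusted p = 0.186 and 0.109). The second probe-set of Ldb3 was dim in the null and P3 and reached 4.31 in P5 (difference 0.36 with passage, adjusted p = 0.15).

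Among 14 measured regulators of the muscle lineage, 1 rose in the null, Myog, where 1.51% of all genes rose. Myogenin, which drives the differentiation of myoblasts, had signals of 6.21, 5.34 and 5.61 in the null, 2.71 on all P5 arrays and 3.54 on all P3 arrays. Both wild type groups were dim, so the null exceeded each at least 3.30-fold. The difference from P3 was 2.18 (SE 0.21, adjusted p = 0.0103). The wild type values did not vary within a group, so this p-value can be too small. Myod1 and Myf5, which commit cells to the skeletal lineage, and Myf6 and Pax7 were at the floor on all 9 arrays. Nkx2-5 and Gata4, regulators of the heart, were at the floor as well, and 0 of 10 cardiac regulators and hormones passed in the null relative to P3.

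Of 38 genes for the muscle membrane, triad and fusion, 4 rose in the null and 0 fell (1.51% and 1.07% of all genes). Jph2, which joins the membrane to the calcium store in heart and skeletal muscle, had signals of 8.33, 8.34 and 8.24 in the null, 8.18, 8.24 and 8.16 in P5 and 7.31, 7.30 and 7.39 in P3. It rose by 0.97 in the null (adjusted p = 0.000662) and by 0.86 with passage (adjusted p = 0.000284). For Jph2 the null missed the threshold against P5 (difference 0.11, adjusted p = 0.196). Srl, which binds calcium in that store, rose by 1.11 (adjusted p = 0.0106) but was dim on average in every group. Des, the intermediate filament around Z-discs, rose by 1.09 (adjusted p = 0.044), and Chrna1, the alpha subunit of the acetylcholine receptor, by 0.93 (adjusted p = 0.0333). Des had signals of 8.47, 8.21 and 7.85 in the null, 6.72, 6.77 and 6.74 in P5 and 7.27, 6.86 and 7.14 in P3, so the null stood apart and P5 lay below P3 without passing.

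Contractile genes of smooth muscle gave other calls. Of 16, 1 rose in the null (Des) and 0 fell, where 1.51% of all genes rose. With passage 8 rose and 0 fell, where 6.13% of all genes rose. Relative to the P3 mean, their mean log2 signal was nonetheless higher on every null array, by 0.22 to 0.40, as on every P5 array, by 0.34 to 0.51. The P3 arrays ran from -0.09 to 0.06. The 4 with the smallest p at P5 were Acta2, the smooth muscle alpha-actin, which rose by 0.19, the tropomyosin Tpm2, by 0.47, the light chain Myl9, by 0.68, and the light chain kinase Mylk, by 1.51 (adjusted p from 0.00222 to 0.0104). Of 16 genes of the non-muscle actomyosin, 0 passed in the null.

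**Figure D5:**
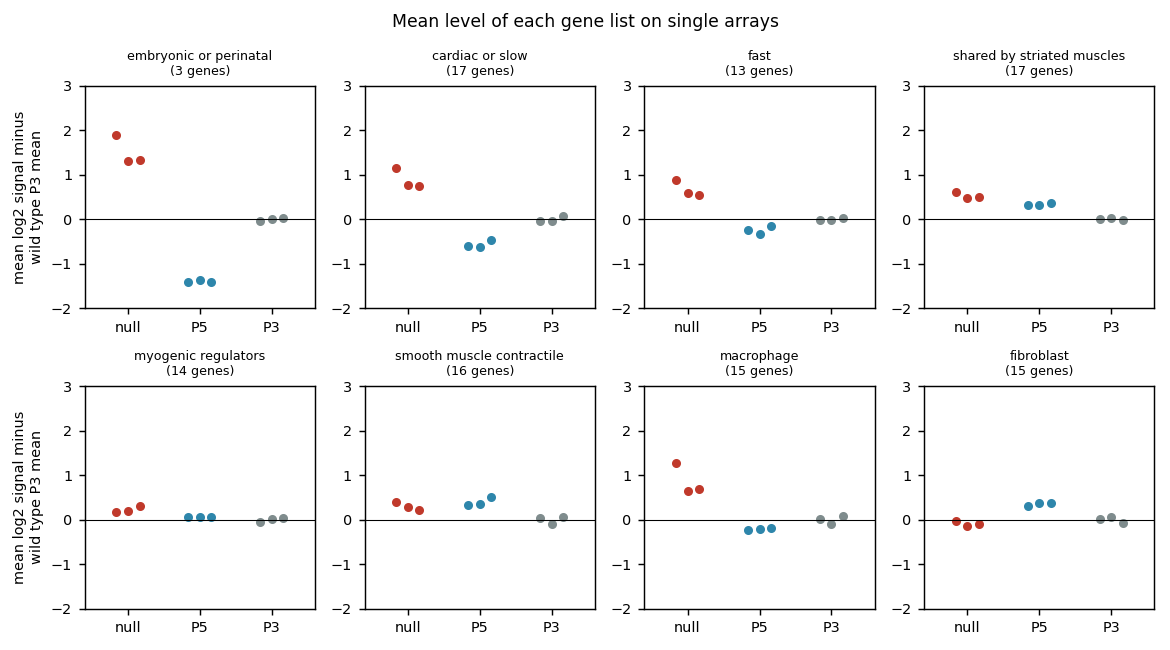
Mean log2 signal of each gene list on single arrays, relative to the wild type P3 mean, for null P3, wild type P5 and wild type P3. The embryonic or perinatal members stood at 1.31 to 1.89 in the null and at -1.41 to -1.35 in P5, and macrophage markers at 0.64 to 1.26 in the null and at -0.24 to -0.18 in P5.

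The null arrays were not alike in these genes. Null replicate 1 was the highest null array for 12 of the 13 members that rose, and their mean signal was 8.21, 7.53 and 7.60 on null replicates 1 to 3, against 5.57, 5.56 and 5.72 on the P3 arrays. Markers of macrophages, too, had a higher mean in the null than in either wild type group, and their highest mean on that array. Their summed linear signal over 15 genes ran from 899 to 1412 in the null, from 416 to 469 in P5 and from 556 to 603 in P3, and 11 of the 15 averaged above 4 in the null, 6 in P5 and 7 in P3. Of the 15, 1 rose in the null relative to P3 (Ctss, by 1.89), where 1.51% of all genes rose. Relative to P5, 7 rose in the null, where 6.08% of all genes did. With passage 0 of the 15 rose or fell, with a median difference of -0.11. Itgam and Aif1, defining markers, were at the floor on all arrays, and Ptprc reached 2.36. The part of macrophages in the sarcomere result was not tested. Without null replicate 1, 13 members rose in the null, 11 of them among the 13.

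Markers of other cell types gave few calls, where 1.51% of all genes rose and 1.07% fell in the null relative to P3. In the null relative to P3, 0 of 10 endothelial, 0 of 8 epithelial and mesothelial, 0 of 7 neural and glial and 0 of 6 cartilage genes passed, 1 of 15 fibroblast genes fell (Dcn, by 0.73), and 1 of 10 mast cell genes rose (Tph1, by 2.11, with the mast cell protease Cpa3 at the floor). The summed linear signal of the 6 cartilage genes, most of it from Col2a1, ran from 2874 to 4177 in the null, 705 to 1006 in P5 and 1401 to 1827 in P3. The list as a whole did not show this order. Its median difference between the null and P3 was -0.02, and the mean log2 signals overlapped (4.72 to 5.51 and 4.75 to 4.86). In each group 3 of the 6 averaged above 4. Relative to P5, Col2a1 rose in the null and Comp fell. Col2a1, the collagen of cartilage, had signals of 11.98, 11.55 and 11.44 in the null, 9.22, 9.33 and 9.80 in P5 and 10.65, 10.33 and 10.73 in P3. Its groups did not overlap, with a difference of 1.08 between the null and P3 (adjusted p = 0.0808) and of 2.20 between the null and P5 (adjusted p = 0.003), while Matn1, a cartilage matrix protein, was at the floor on all arrays. The summed signal of the 10 mast cell genes ran from 77.6 to 92.8 in the null, from 46.88 to 46.93 in P5 and from 51.7 to 52.4 in P3. Of the 10, 1 averaged above 4 in the null and 0 in P5 or P3. The median difference between the null and P3 was 0, so the sum does not describe the list as a whole. The part of any of these cells in the sarcomere signals was not tested.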

How the data were processed

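The authors deposited log2 signals for 9 Affymetrix MOE430 2.0 arrays, made with GCRMA (background from probe sequence, quantile normalization and 1 summary per probe-set). The submitters' notes also name limma, with no version of either tool. The deposited log2 values were not normalized further. Probe-sets were named through the platform annotation and a RefSeq table of assembly GRCm38.p6, where 34958 had 1 symbol, 932 several and 9211 none. Probe-sets that list both Myh6 and Myh7 were left out. A gene was represented by its probe-set with the highest mean signal.

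The means of the 3 groups were fitted to all 9 arrays with limma 3.58.1 (R 4.3.3) and eBayes defaults, and the 3 comparisons were adjusted over 45101 probe-sets (Benjamini-Hochberg). "Rose" and "fell" mean an adjusted p under 0.05. The fit was tested on simulated data. The paper describes independent cultures, and p-values measure the spread between them. It does not state whether the cultures of a group came from different embryos. Where all arrays of a group held the same value, as for Actn2 in P5 and P3, the SD was 0. This lowers the shared estimate of the spread, so such p-values can be too small. The number of arrays limits the precision, and an exact permutation test of 3 against 3 cannot go below p = 0.1.

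The members, isoform classes and marker lists were chosen with earlier results of these data known. Array values are given for each member that passed a comparison. Of other lists, up to 4 genes with the smallest p were named, besides Myog, Myod1, Myf5, Des and Tgif1; the remaining names were chosen after their values were seen. Alternatives were an F test p under 1e-04 over the 3 groups with a difference of at least 0.5, the selection that the methods describe (the same limits on each comparison's own p, added after seeing the data), a filter on dim probe-sets, another prior, quantile normalization, median centring, a block for the replicate number, fitting just the 6 arrays compared, the mean of a gene's probe-sets, a threshold of 0.1 and leaving out each array. Scan dates were not used here, so batches were not tested.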

Additional observations from a re-analysis of the deposited data

How the results depend on the processing

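Over 852 combinations of a called member, a comparison and another setting, 694 kept direction and call, 158 lost the call and 0 changed direction. For the null against P3, where 13 members were called, 8 were with the pairwise selection that the methods describe (chosen after seeing the data), 6 with a trended and robust prior, 2 with the replicate number as a block and 0 with the 6 arrays of both groups alone (18 at an unadjusted p under 0.05), which has fewer arrays to estimate the spread. Leaving out single arrays gave 3 (without P3 replicate 1) to 13, with 8 without P3 replicate 2 and 8 without P5 replicate 1, although P5 enters only through the shared spread. The other settings gave 12 to 16 calls, and each called member was higher in the null. For P5 against P3 (14 called), that selection gave 7, leaving out arrays 12 to 14 and other settings 11 to 15. For the null against P5 (18 called), these gave 12, 14 to 17 and 13 to 19. The cause of the losses was not tested otherwise.

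The replicate numbers of the labels did not pair the arrays: deviations from the group means correlated at -0.49 to 0.40 for the same number and at -0.61 to 0.63 for other numbers, so not every array resembled its own number most. With that number as a block, 2, 12 and 14 members were called for the null against P3, P5 against P3 and the null against P5.

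Signal over background limits the rest: 62 of the 88 probe-sets were under 4 on all arrays. The same value on replicate arrays of a group was found for 3 of the 20 called members in the null, 7 in P5 and 6 in P3.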
